A study of Gasterosteus aculeatus with 17 samples.

Results

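In the gills of three-spined sticklebacks (Gasterosteus aculeatus), 25 of 22456 genes were higher in every marine fish than in every freshwater fish, with population means at least 1 log2 unit apart and little change between fresh and marine water. They were chosen by their CPM, a gene's count per 1000000 counts of the same fish. The lowest of 9 marine fish had to be above the highest of 8 freshwater fish. The log2 ratio of the population means, with 0.5 CPM added to both, had to be at least 1. The log2 change between waters, from group means with 0.5 CPM added, had to be below 0.5 in size in both populations. These values chose the genes, so the population difference and the small water change are descriptions and carry no test.

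The fish were wild males in breeding dress, caught at a lake (freshwater fish) or on a sea coast (marine fish), and each gill gave 1 library of polyadenylated RNA. Of the marine fish, 4 stayed in marine water (kept marine fish) and 5 spent 4 days in fresh water (moved marine fish). Of the freshwater fish, 4 stayed in fresh water (kept freshwater fish) and 4 spent 4 days in marine water (moved freshwater fish). All of them were held captive, and no source used here gives their ages. A difference between the populations holds everything that differs between a lake fish and a sea fish. Library depth went with population too, as given below. Traits inherited, acquired before capture or acquired in captivity cannot be told apart. In whole gill, a gene transcribed less per cell and a gene whose cells are fewer cannot be told apart either.

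The gill is where a fish meets the salt balance of its water: gills of sea fish secrete salt, and those of freshwater fish take it up. Specialised cells called ionocytes do this work with pumps and channels in their membranes, among epithelial, mucous, blood and immune cells. Sticklebacks of the sea have colonised lakes and streams many times, and expression that differs between such populations whatever the water is often compared with expression that follows the water. The gene IDs could not be paired with names (0 of 22456 matched a reference table of 52177 genes), so the genes are given by ID or by rank, no role can be stated for any of them, and the gill identity of the samples could not be checked against marker genes.

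Totals were 17993109 to 19450343 counts in kept marine fish and 6932688 to 16108405 in moved marine fish, against 23736661 to 27949237 in moved and 23609866 to 28960967 in kept freshwater fish, so the marine libraries were the shallower ones. All 25 genes passed the low-count filter, which 18238 of all genes passed. A count above 0 was present in all 17 fish for 24 of the 25. The remaining gene had 0 counts in kept freshwater fish 1, which allows up to 0.121 CPM by counting error if each count stands alone. Counts of this gene share a divisor of 2 across fish, so the error may exceed this. One library stood apart: kept freshwater fish 5 had a median position between the populations over genes that separate them. Without it 39 genes passed, and leaving out any other single fish gave 18 to 36. The lowest count of any of the 25 in a marine fish was 4, and the median gene had at least 117 counts in its lowest marine fish.

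By the log2 difference used for the choice, most of the 25 genes were little above the threshold. Mean levels in marine fish ran from 0.940 to 449 CPM, with a median of 17.5 CPM, and 7 of the 25 had at least 50 CPM. In freshwater fish the means ran from 0.188 to 75 CPM. CPM is not divided by transcript length, so it is compared here between fish and not between genes. By difference, 4 genes were over 2 log2 units, 1 was at 1.71, and the other 20 lay between 1.01 and 1.38 log2 units. In linear terms, with nothing added, the ratio of means was 2.04 to 23.4, with a median of 2.49. The 0.5 CPM added to both means lowers the log2 difference most in genes of low level. In marine fish the genes of ranks 6, 13, 16 and 17 had means of 0.940 to 2.05 CPM. Their ratios were 4.25, 3.83, 3.69 and 4.99.

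**Figure D1:**
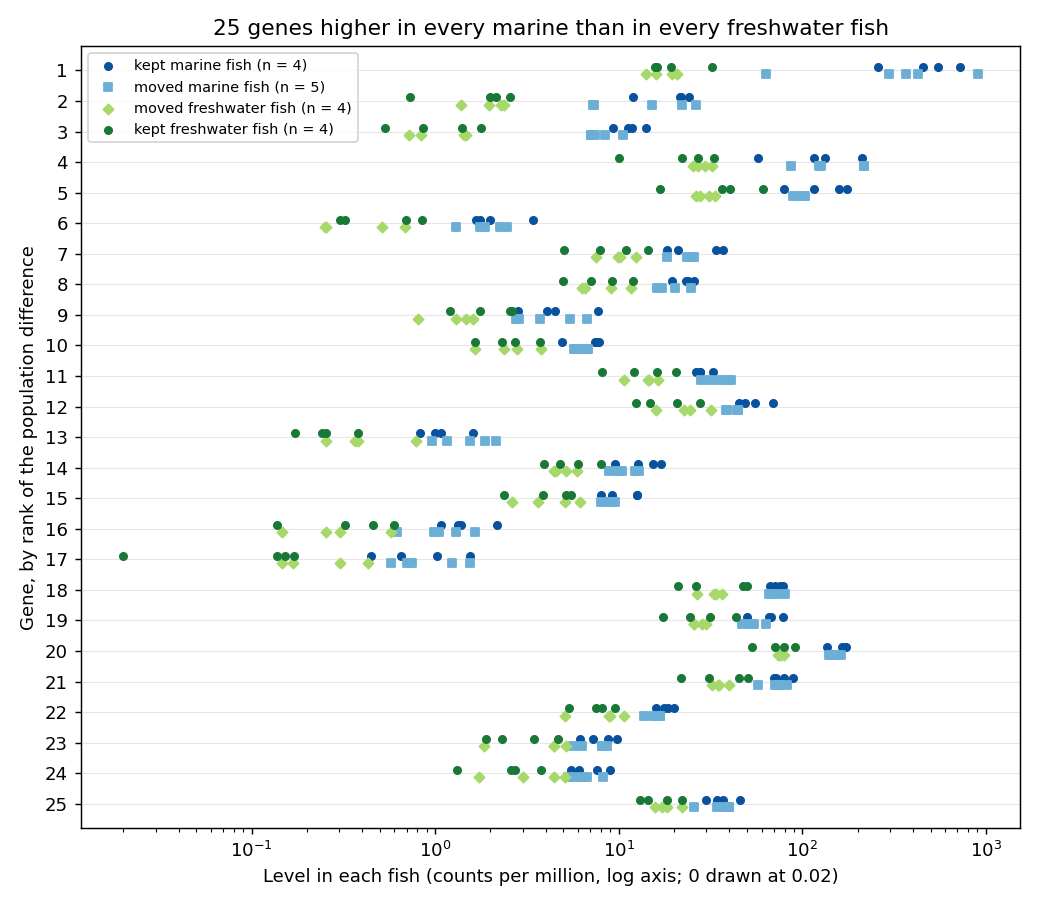
Level of each of the 25 genes in each fish, in CPM on a log axis, with genes ordered by the size of the population difference (1 is the largest). Blue points are marine and green points freshwater fish. The gap between the colours is widest for genes 2 and 3, at 2.84-fold and 3.94-fold, and under 2-fold for all others.

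The largest difference of the 25 belonged to ENSGACG00000003404. Its level was 547, 720, 258 and 453 CPM in kept marine fish 2, 3, 4 and 5, and 298, 367, 63.4, 904 and 429 CPM in moved marine fish 1 to 5. It was 15.9, 14.1, 20.9 and 19.6 CPM in moved freshwater fish 1 to 4, and 19.2, 16.1, 15.8 and 32.1 CPM in kept freshwater fish 1, 2, 4 and 5. Marine fish differed among themselves by 14.2-fold from lowest to highest, freshwater fish by 2.28-fold, and only moved marine fish 3 came near the freshwater values. The group means were 494 ± 193 (SD, n = 4) and 412 ± 308 CPM (n = 5) in kept and moved marine fish, against 17.6 ± 3.14 and 20.8 ± 7.69 CPM (n = 4 each) in moved and kept freshwater fish. The difference was 4.51 log2 units.

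ENSGACG00000012477 varied among moved marine fish. It stood at 12, 24, 21.9 and 21.5 CPM in kept marine fish 2 to 5, and at 26.5, 7.21, 7.33, 15.1 and 22.2 CPM in moved marine fish 1 to 5. Freshwater fish lay between 0.729 CPM (kept fish 1) and 2.54 CPM (kept fish 5). Moved marine fish 2 and 3 were the lowest of the marine fish, and still at least 2.84-fold above the highest freshwater fish. Counts of this gene share a divisor of 2 across fish, so counting error may exceed what they imply. Group means were 19.8 ± 5.34 and 15.7 ± 8.68 CPM in kept and moved marine fish, and 2.00 ± 0.441 and 1.85 ± 0.782 CPM in moved and kept freshwater fish, a difference of 2.90 log2 units.

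ENSGACG00000010729 had the widest gap between the populations. Marine fish held 14.0, 11.2, 9.30 and 11.8 CPM in marine water and 8.42, 7.07, 7.45, 7.03 and 10.6 CPM in fresh water, while freshwater fish held 0.532 to 1.78 CPM. The lowest marine fish was 3.94-fold above the highest freshwater fish, the largest such gap of the 25. Among marine fish the coefficient of variation (CV, the SD as a percentage of the mean) was 25.1%, against 56.0% for ENSGACG00000003404. Group means of ENSGACG00000010729 were 11.6 ± 1.94 and 8.10 ± 1.48 CPM (SD) in kept and moved marine fish. With 0.5 CPM added to both, as in the choice, the moved fish were lower by 0.49 log2 units, close to the limit. The added 0.5 CPM makes this change smaller than that of the means alone.

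**Figure D2:**
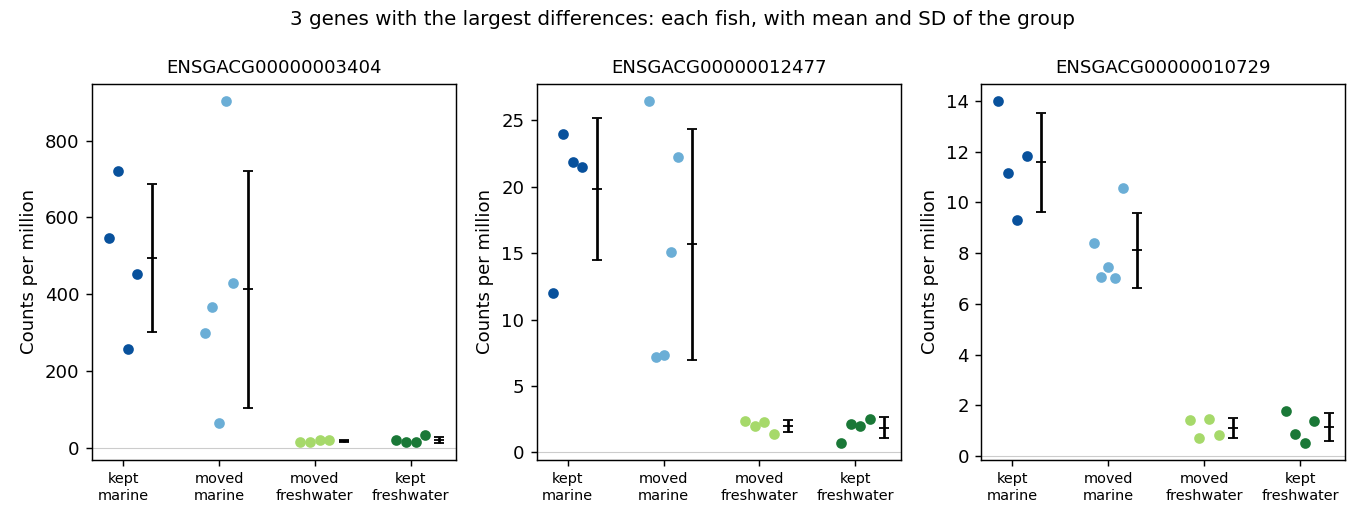
Level in CPM of the 3 genes with the largest population differences, 1 point per fish in each of the 4 groups, with the group mean and SD in black beside them. The 9 marine fish lie above the 8 freshwater fish in each panel, and moved marine fish 3, at 63.4 CPM, is the lowest marine point in the first panel.

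The other genes are given by the rank of their difference. The gene of rank 4 had 57.2 to 217 CPM in marine fish, with the lowest value in kept marine fish 3, and 10.1 to 33.1 CPM in freshwater fish. Kept freshwater fish 5 was the lowest of all fish for this gene, and kept freshwater fish 4 the highest of its population. The gene of rank 5 had 79.4 to 174 CPM in marine fish and 16.7 to 60.9 CPM in freshwater fish, where kept freshwater fish 5 was highest. The gene of rank 20 was among the steadiest, at 136 to 172 CPM in marine and 53.1 to 91.3 CPM in freshwater fish, with CVs of 8.71% and 14.3%. The lowest CV among marine fish was 7.50%, in the gene of rank 18, at 66.0 to 80.1 CPM in marine and 21.0 to 49.7 CPM in freshwater fish. The gene of rank 17 had 0.445 to 1.54 CPM in marine fish and 0 to 0.429 CPM in freshwater fish.

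Gaps between the populations were small for most of the set. The lowest marine fish exceeded the highest freshwater fish by over 2-fold for 2 of the 25 genes and by over 1.5-fold for 5, with a median of 1.28-fold. Over all 22456 genes, 6 (0.027%) had a gap of over 2-fold and 11 (0.049%) a gap of over 1.5-fold in this direction. At the edge of the overlap criterion, the gene just inside had 0.445 CPM in its lowest marine and 0.429 CPM in its highest freshwater fish. The gene just outside had 9.86 and 10.3 CPM, with means of 25.2 CPM in marine and 4.62 CPM in freshwater fish. By difference, the gene just inside was at 1.01 log2 units and the one just outside at 0.997, and by water change the values were 0.494 and 0.506. Outside the set, 98 genes separated the populations and were steady but differed by less than 1 log2 unit, 77 were large and steady but overlapped, and 26 were large and without overlap but over the water limit (16 of them in marine fish alone, 6 in freshwater fish alone and 4 in both).

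The same criteria with the populations exchanged gave 152 genes higher in freshwater fish. Without overlap, before the other criteria, 154 genes were higher in all marine fish, 0.686% of all genes, and 686 higher in all freshwater fish. The imbalance depended on the scaling: of all genes passing in either direction 14.1% were higher in marine fish, against 20.6% with TMM scaling (trimmed mean of M-values, 34 against 131 genes) and 32.4% with DESeq2 size factors (44 against 92). The median difference of all tested genes between the populations was -0.08, -0.01 and 0.04 log2 units under these scalings. Marine fish also varied more, with a higher CV than freshwater fish for 74.7% of all tested genes. This CV was taken over kept and moved fish together, so it holds differences between these groups as well as within them. The same held for 4 of the 25, a count that the requirement of no overlap bears on directly. With all libraries thinned to equal depth in a single draw, 28 genes were higher in marine fish, 19 of them among the 25. In freshwater fish 141 were higher. The part of depth and of this spread in the imbalance was not tested.

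The population difference was measured in each water by a fit of all genes and all fish, and the 2 comparisons share no fish. In fresh water the 25 genes were higher in marine fish by 0.93 to 4.35 log2 units (edgeR), with a median of 1.32, where the median of all 18238 tested genes was 0.00. In marine water they were higher by 1.13 to 4.97, with a median of 1.54 against -0.02 for all genes. Standard errors had medians of 0.28 and 0.29. All 25 were called higher in both waters (edgeR quasi-likelihood test with Benjamini-Hochberg adjustment over all genes), where 7.07% of all tested genes were called higher in marine fish in fresh water and 11.6% in marine water. The choice of the genes used these contrasts, so the count is given as a description. For 19 of the 25 the difference was larger in marine water, against 48.4% of all genes, with a median excess of 0.28 log2 units. The excess compares the same groups as the water changes given below, so it is not a separate result. Kept freshwater fish 5 enters the fresh-water comparison only. It was above its group mean for 23 of the 25 genes, by a median of 0.45 log2 units, and its part in the excess was not tested.

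ENSGACG00000003404 differed by 4.35 (SE 0.56) in fresh and 4.97 (SE 0.59) log2 units in marine water, ENSGACG00000012477 by 3.13 (SE 0.42) and 3.45 (SE 0.42), and ENSGACG00000010729 by 2.87 (SE 0.31) and 3.53 (SE 0.31). The gene of rank 13, at 0.823 to 2.16 CPM in marine fish, was one of the exceptions, at 2.58 (SE 0.40) in fresh and 1.45 (SE 0.37) in marine water.

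**Figure D3:**
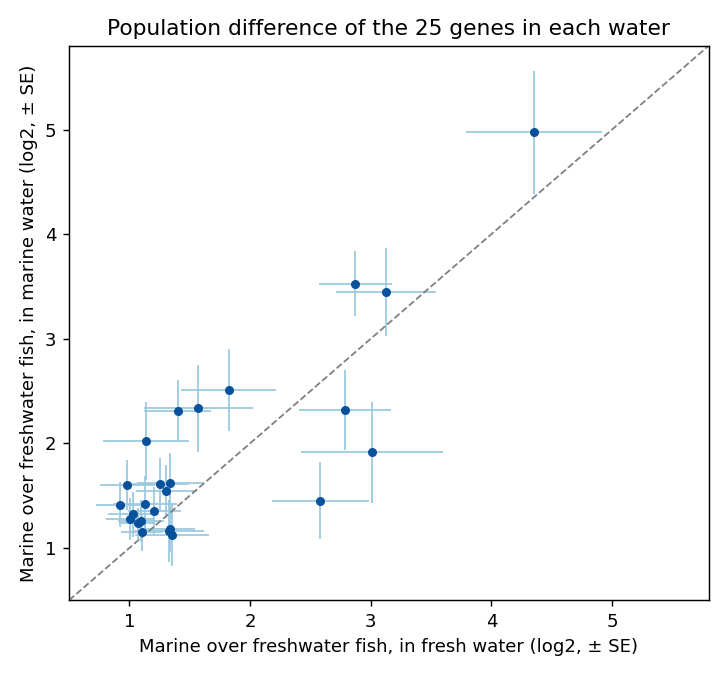
Population difference of each of the 25 genes in fresh water (x axis) and in marine water (y axis), in log2 units from the fit of all genes, with standard errors as bars. The dashed line marks equal differences, and 19 of the 25 points lie above it.

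Within the limit set on water changes, the direction of those changes was free. Within a population, the water went with being moved or kept, so water and transfer cannot be told apart. In marine fish depth went with them too, as every moved library was shallower than every kept one. Moved marine fish, in fresh water, were lower than kept marine fish for 21 of the 25 genes, with a median change of -0.16 log2 units. Of the 12975 tested genes that were as steady in both populations, 53.4% were lower. The count was 21 under TMM scaling and DESeq2 size factors too. Kept marine fish 4 was the highest marine fish for 11 of the 25 genes and kept marine fish 5 for 0. The 25 genes also varied together across fish, so counts of direction are descriptions and not separate observations. In freshwater fish 14 of the 25 were lower in fresh water, against 67.2% of the steady genes. Other scalings lowered both, to 9 of 25 against 51.6% with TMM and 8 of 25 against 49.4% with DESeq2 size factors. Summed over the 25 genes, the level was 1409 ± 134 CPM in kept and 1256 ± 330 CPM in moved marine fish, and 356 ± 18.7 and 359 ± 93.5 CPM in moved and kept freshwater fish (SD, n = 4, 5, 4 and 4). ENSGACG00000003404 alone made up 33.9% of the sum in marine and 5.37% in freshwater fish. Without it the sums were 915 ± 86.1 and 843 ± 79.95 CPM in marine fish, and 338 ± 19.96 and 338 ± 86.5 CPM in freshwater fish.

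The 25 genes tended to deviate together from their group means, most of all in kept freshwater fish 5 and 2. Kept freshwater fish 5 was above the mean of its group for 23 of the 25 genes, by a median of 0.45 log2 units, and was the highest freshwater fish for 14 of them. Kept freshwater fish 2 was above its group mean for 4, with a median of -0.30. Over all tested genes the median deviation was 0.01 in fish 5 and 0.00 in fish 2. Among marine fish the median deviations ran from -0.23 in kept fish 5 to 0.17 in kept fish 4. Among moved freshwater fish they ran from -0.15 in fish 3 to 0.18 in fish 1. The lowest value of the marine fish was most often that of moved fish 3 (8 genes). Across the 17 fish, deviations from the group mean had a median correlation of 0.33 over 300 pairs of the 25 genes, against 0.01 over all pairs of tested genes. The median over pairs of the 25 was 0.20 within marine and 0.42 within freshwater fish. Across both populations it was 0.22 without kept freshwater fish 5, and 0.17 without kept freshwater fish 2 and 5. All pairs of tested genes were read only across the 17 fish, not within a population. All pairs share the same libraries and totals, and the values are descriptions.

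Because each fish helped to choose the genes, each was also placed by genes chosen without it. On a scale where 0 is the mean of the other freshwater fish and 1 the mean of the other marine fish (log2 of CPM plus 0.5), marine fish had median positions of 0.72 to 1.08. The freshwater fish other than kept fish 5 lay between -0.11 and 0.18. Kept freshwater fish 5 was at 0.47, about midway, over 39 genes chosen without it. It exceeded the range of the other 7 freshwater fish for 28 of these 39 genes (71.8%) and reached the marine range for 10. The corresponding shares outside the own range were 0% to 26.5% in the other freshwater fish and 3.57% to 44.4% in marine fish, highest in moved fish 3. Over all tested genes, kept freshwater fish 5 lay outside its population's range on the marine side for 25.7%, against 9.1% to 21.8% in the other 16 fish. Of the 25 genes, 22 passed without this fish. The labels place it with the lake fish, and whether its origin or its library differs from theirs was not tested, which limits the freshwater means and the count of 25.

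**Figure D4:**
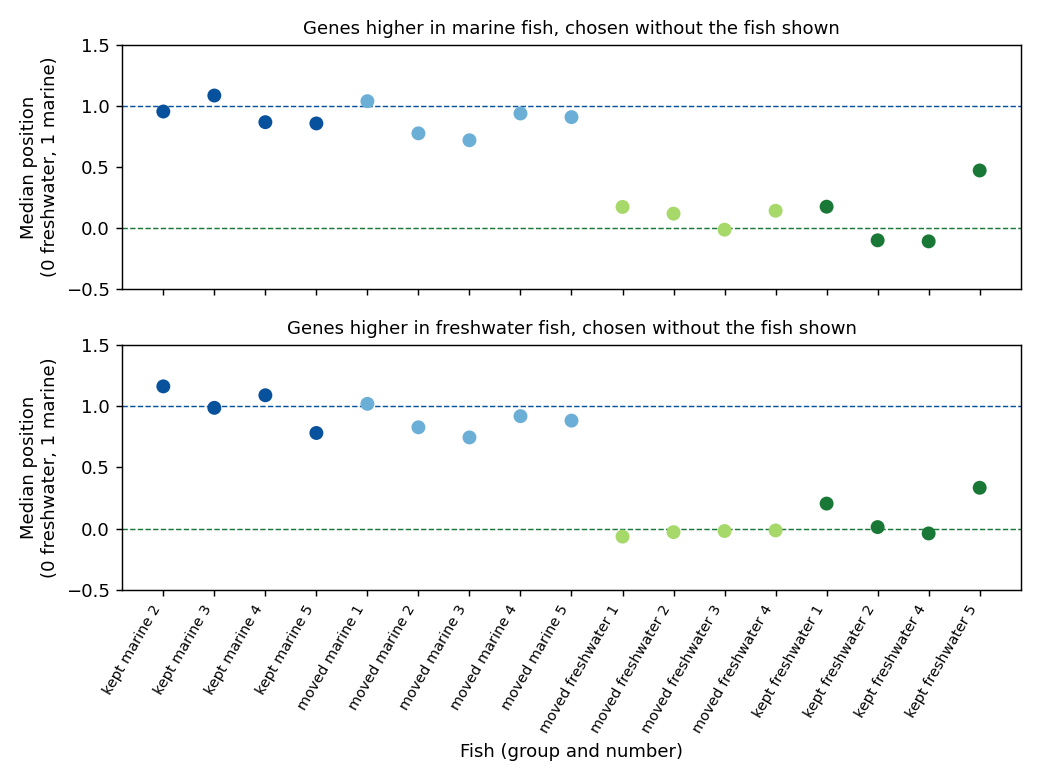
Median position of each fish between the freshwater mean (0) and the marine mean (1) of the other fish, over genes higher in marine fish (upper panel) and genes higher in freshwater fish (lower panel), each chosen without the fish shown. Kept freshwater fish 5 lies at 0.47 and 0.33, between the populations.

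Whether genes chosen in some fish also separate others was measured by choosing on kept fish alone (no overlap and at least 1 log2 unit between marine fish in marine water and freshwater fish in fresh water). This gave 307 genes, among them 24 of the 25. By their own choice the 25 overlap in neither kept nor moved fish, so their presence here is no test of them. In the moved fish, which the choice did not use and whose waters were exchanged, 250 of the 307 were higher in marine fish (81.4%, against 42.3% of all genes with a count), with a median of 0.59 log2 units against -0.06. Every moved marine fish was above every moved freshwater fish for 82 (26.7%), against 3.1% of all genes, and the reverse held for 2. In a fit of the moved fish alone, edgeR called 100 of the 286 tested genes of this choice higher in marine fish (35.0%) and 1 lower, against 5.69% of all tested genes called higher.

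Choosing on moved fish and reading kept fish exchanged the roles of the groups. This gave 205 genes, among them 15 of the 25, which again is no test of these. Of the 205, 185 were higher in kept marine than in kept freshwater fish (90.2%, against 49.9% of all genes). The populations did not overlap for 79 (38.5%), against 7.53% of all genes, and overlap was absent in the reverse direction for 6. In a fit of the kept fish alone, edgeR called 71 of the 177 tested genes higher and 5 lower, against 7.82% of all tested genes called higher. Depth differed between the populations in the fish chosen on and in the fish read. At equal depth 83 of 331 genes (25.1%, against 2.83% of all genes) and 77 of 191 genes (40.3%, against 7.08%) separated the populations in the other fish. Without kept freshwater fish 5, 135 of 525 genes chosen on kept fish separated the moved fish (25.7%, against 3.1% of all genes).

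**Figure D5:**
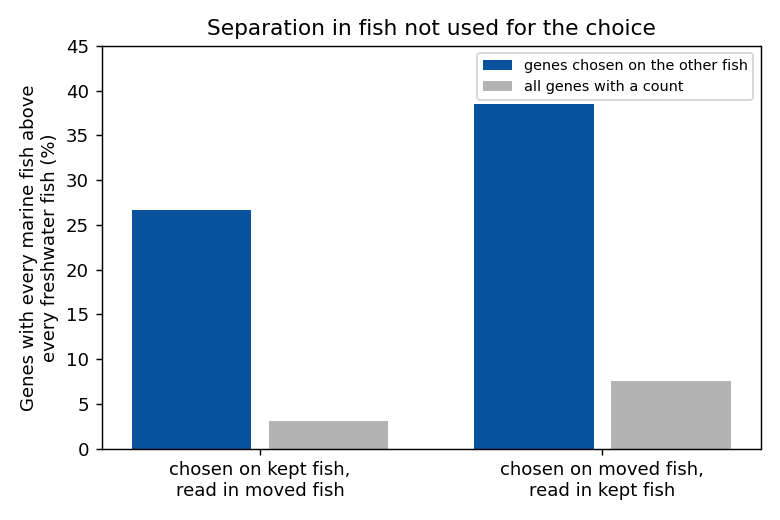
Percentage of genes with every marine fish above every freshwater fish, in fish that were not used to choose the genes. Blue bars are genes chosen on the other fish (26.7% and 38.5%) and grey bars all genes with a count (3.1% and 7.53%).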

How the data were processed

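The authors deposited whole-number read counts without normalization, for 22456 genes in 17 fish. The submitters' processing notes name CASAVA 1.8.2 and TopHat2 2.1.0. Counter, strand setting, build and annotation are not given in the sources, so coordinates are left out and genes that share reads cannot be told apart. Per the labels' protocols, polyadenylated RNA went into a NEBNext mRNA kit.

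Groups came from the labels. CPM used column totals. For tests, genes were kept with filterByExpr (minimum count 10), scaled by TMM and fitted with all 4 groups in edgeR 4.0.16 (glmQLFit with legacy set to FALSE, not the version's default, as this nearly matched counts from earlier work on these data; glmQLFTest, no covariates), called at an adjusted p below 0.05. Standard errors are the log2 difference divided by the square root of F. Fits of the moved or the kept fish alone used the same steps. Alternatives used DESeq2 1.42.0, limma 3.58.1 and a single seeded thinning. The choice criteria and the fit of all fish were tried on simulated counts with known differences, and the other steps were not. R 4.3.3, Python 3.11.15 and matplotlib 3.10.9 were used.

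The genes, criteria and tests were chosen with earlier results of these data known. By rule the IDs named are the genes with the 2 largest differences overall and in each water, at 5 CPM or more in marine fish. Lists of gill and cell type markers could not be applied without gene names. Counts sharing a divisor of 2 or more across all fish occurred in 7 of the 24 genes with over 200 counts in total, and in 27.9% of all such genes. Why is not known, and counting error may exceed what such counts imply. Fish numbers recur across groups but mark separate wild fish, and no pairing was assumed.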

Additional observations from a re-analysis of the deposited data

How the results depend on the processing

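The number of genes passing was 44 with DESeq2 size factors, 38 with a water limit of 1 and 51 with no water limit, holding 24, 25 and 25 of the 25. Fewer of the 25 were kept in 30 genes with 0.1 CPM added (21) and 21 genes with 1 CPM added (18). At equal depth 28 passed, 19 of them among the 25. Leaving out 1 fish gave 18 (without kept freshwater fish 4) to 39 (without kept freshwater fish 5), and 8 of the 25 passed whichever fish was left out. None of the 5 genes with the largest differences is among the 8: the 3 named genes went over the water limit without 1 fish (ENSGACG00000003404, without moved marine fish 4), 2 fish (ENSGACG00000012477) and 4 fish (ENSGACG00000010729). With counts divided by shared divisors 18 genes passed, 13 of them among the 25, against 231 higher in freshwater fish. Without moved marine fish 1 and 2, chosen after seeing the data, 35 passed, 23 of them among the 25. Genes chosen on kept fish that separated moved fish numbered 68 to 135 with 1 fish left out (of 288 to 525 chosen, against 3.1% to 4.64% of all genes), and in the reverse choice 78 to 99 (of 205 to 352, against 7.53% to 12.2%). Of the 25, 20 to 25 were called higher in each water over 29 alternatives each. Of all tested genes, 1.87% to 11.2% were called higher in fresh and 7.90% to 15.3% in marine water. The 20 came under a filter of 5 CPM in at least 4 fish that leaves fewer genes to test. Because the choice of the 25 used these contrasts, counts of calls are descriptions here too. With the fish number as a replicate block 24 were called in fresh and 25 in marine water, beside 5.25% and 10.03% of all genes. With edgeR's default method, tried after seeing the data, 25 were called in both, beside 6.57% and 10.8%. Correlations of same-numbered fish ran from -0.32 to 0.25, with a median of 0.01 against -0.0007 in other pairs. Of the 21 same-numbered pairs 6 were over 0.1, and 5 of 17 fish correlated best with their own number. Between kept and moved marine fish, numbers 3, 4 and 5 were at 0.20, 0.15 and 0.25, and number 2 at -0.22. The difference of ENSGACG00000010729 was 2.99 with 0.1 CPM added. Under the other alternatives run the differences of the 3 named genes moved by less than the spread between fish. Levels under about 2 CPM in marine fish (3 of the 25 genes) rest on few counts.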

Other observations

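The genes higher in freshwater fish gave kept freshwater fish 5 a like place. Over 206 such genes chosen without it, its median position was 0.33, and it fell below the range of the other freshwater fish for 127 (61.7%) and into the marine range for 36. In the other freshwater fish the position was -0.06 to 0.20 and the share outside their range 2.8% to 28.5%. Marine fish lay between 0.75 and 1.16. Of the 150 genes with the largest difference in that direction, chosen with all fish, it was the lowest freshwater fish for 78.

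Kept marine fish 5 and moved marine fish 3 were low for the 25 genes and high for those 150. Their median deviations from their group means were -0.23 and -0.19 for the 25 genes, and 0.29 and 0.18 for the 150. Both had the highest total of their group (19450343 and 16108405 counts). Kept marine fish 4, with the next highest total of its group (18489001), deviated the other way, by 0.17 and -0.11. The part of depth was not tested.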
